A study of Mus musculus with 10 samples.

Results

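The clustered protocadherins are 3 neighbouring arrays of genes on mouse chromosome 18, and 58 of the 25078 genes in the deposited count table belong to them. The members were taken by symbol and position, as every listed gene on chromosome 18 whose symbol begins with Pcdha, Pcdhb or Pcdhg, which gave 14 alpha, 22 beta and 22 gamma genes. This family was chosen because its genes had been seen to differ between the genotypes in these same libraries, so the genotype difference in its members is given as a description, without a test. The libraries came from LSK cells (lineage-negative, Sca-1-positive and c-Kit-positive bone marrow cells, the fraction that holds the hematopoietic stem cells and early progenitors) of 10 mice, 5 CM and 5 CM/miR-126Δ/Δ, each sequenced as a library of its own. CM mice carried 1 conditional Cbfb-MYH11 allele and the Mx1-Cre transgene (Cbfb56M/+/Mx1-Cre), a model of leukemia with inversion of chromosome 16. CM/miR-126Δ/Δ mice carried in addition miR-126 alleles flanked by loxP sites on both chromosomes (Cbfb56M/+/miR-126flox/flox/Mx1-Cre). All 10 mice were on the C57BL/6 background, were induced as young adults with poly(I:C), which switches on Mx1-Cre, and were sampled 6 weeks later, before leukemia. Mx1-Cre acts in interferon-responsive cells in general, so the deletion was not limited to LSK cells, and no library of a mouse without the CM allele was analysed here.

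Clustered protocadherins are cell-surface adhesion proteins of the cadherin family, known mainly from neurons, where each cell uses a small, partly random set of them and thereby tells its own branches from those of other cells. In the alpha and gamma clusters each gene has a large first exon of its own, with its own promoter, that encodes the extracellular part, and this exon is spliced to constant exons near the end of the cluster that all members share. The beta genes each consist of 1 exon and have no constant part. Promoter choice depends on DNA methylation and on looping to distant enhancers by CTCF and cohesin. The genes are not known as markers of blood stem cells.

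In mm10, the build of the count table, the alpha cluster spans chr18:36930285-37188897, the beta cluster chr18:37264998-37521419 and the gamma cluster chr18:37661775-37841872, all on the plus strand. In each of the alpha and gamma clusters 3 constant exons were found in the reference transcripts, with lengths of 59, 89 and 2712 bases for alpha and 59, 89 and 1971 bases for gamma. A gamma gene of the table therefore counted 2498 to 2960 bases of its own and up to 2119 bases shared with the other gamma genes. How reads on the shared exons were assigned is not given in the sources used here. Had such reads been counted for every gamma gene, no gene could have received more of them than the lowest gamma count of its library, which was 9 reads in CM mouse 2 and no more than 34 in any mouse, against summed gamma counts of 1542 to 3304. Over the 22 genes such reads could make up at most 10.9% to 25.6% of a library's gamma counts. The models Gm37013, Gm38666 and Gm38667 end at the same base as the gamma cluster and were listed at 0. Reads at that shared end, if counted for every gene there, would have been listed for these models as well.

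Total counts ran from 23649233 to 33202086 in CM mice and from 24141663 to 26615091 in CM/miR-126Δ/Δ mice. A level is given as CPM, counts relative to the library total after scaling by TMM factors. The floor, taken as 3 counts, corresponds to 0.0904 to 0.127 CPM before scaling by these factors. The primary transcript gene Mir126a had 4, 5, 0, 2 and 3 reads in CM mice 1 to 5, and no CM/miR-126Δ/Δ library had any. Markers of LSK cells were present in all libraries. Kit, the receptor for stem cell factor, stood at 166 RPKM (CPM per kb of exon) in CM and 179 in CM/miR-126Δ/Δ mice, and Ly6a, which encodes Sca-1, at 57.2 and 58.4. The alpha and beta hemoglobin genes Hba-a1, Hba-a2 and Hbb-bt were listed at 0 in every library and Hbb-bs had 1 read in all; Hba-a1 and Hba-a2 overlap in the annotation, so reads on both may have been assigned to neither.

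The clusters were used very unequally. All 22 gamma genes had reads, each with a mean of at least 10 counts per library, and 13 reached a mean of 1 RPKM in at least 1 genotype. Of the 22 beta genes, 21 had reads and 8 had a mean of at least 10 counts. Of the 14 alpha genes, 7 had a read in any library and none reached a mean of 10 counts. The lowest gamma gene by mean count, Pcdhga3, had 9 to 34 reads, while Pcdha8, the highest alpha gene, had 1 to 16.

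Within the gamma cluster, the level per kb of each gene's own exon climbed from the first genes to the middle and declined towards the end. Pcdhga1, the first in order, stood at 0.652 CPM per kb over the 10 mice and Pcdhga3, the lowest, at 0.312. The highest were Pcdhgb6 at 4.18, Pcdhgb4 at 2.96, Pcdhgb5 at 2.82, Pcdhgb7 at 2.54 and Pcdhga10 at 2.46 CPM per kb, and the differences between neighbours in this order after Pcdhgb6 were smaller than the SD over mice of each gene. By type, which groups variable exons of similar sequence, the median was 1.47 CPM per kb for the 12 A genes, 2.54 for the 7 B genes and 0.752 for the 3 C genes. Pcdhgc3, the first of the C genes, stood at 2.01, above Pcdhgc4 at 0.752 and Pcdhgc5 at 0.442, the last exon of the cluster. The rank correlation of level (RPKM over all exons) with position was 0.40 over the 22 genes, and 0.28 to 0.51 in single libraries. The order of the levels was nearly the same in both genotypes, with a rank correlation of 0.96 between them across these genes, which are not independent replicates.

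**Figure D1:**
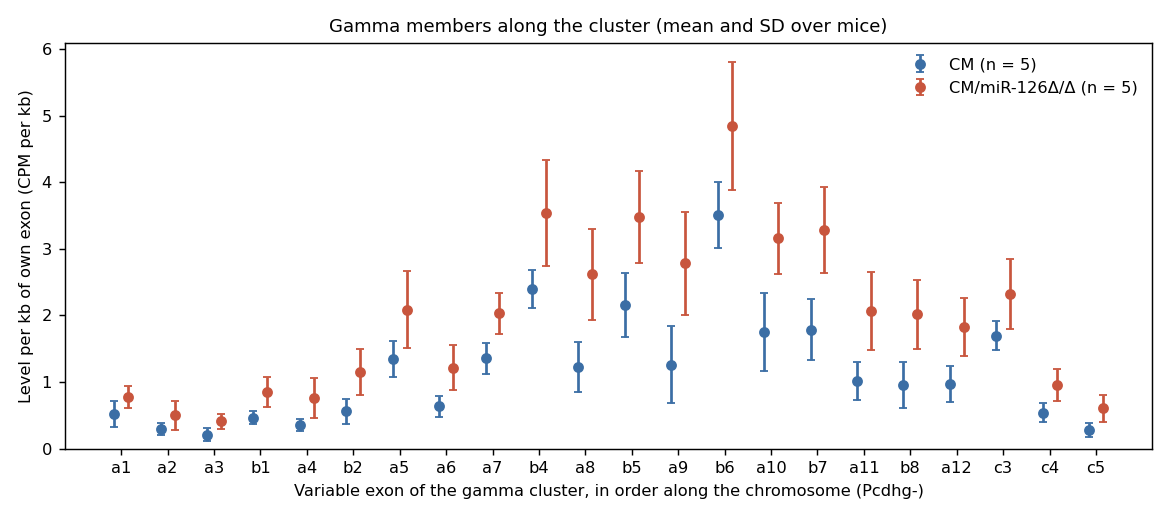
Level of each gamma gene per kb of its own first exon (CPM per kb), in the order of the exons along chromosome 18, for CM and CM/miR-126Δ/Δ mice; points are means and bars the SD over 5 mice. Levels peak at Pcdhgb6 in both genotypes, with 4.18 CPM per kb over all mice, and the CM/miR-126Δ/Δ mean lies above the CM mean at each of the 22 genes.

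In the beta cluster reads were concentrated on the last genes. The 7 genes at positions 16 to 22 stood at 0.171 to 0.808 CPM per kb, with Pcdhb16 the highest and Pcdhb20 the lowest. Of the 15 genes before them only Pcdhb5, with 20 to 47 reads per library and 0.339 CPM per kb, had a mean of at least 10 counts. Pcdhb1, the first, had 0 to 3 reads per library and Pcdhb10 none. The first alpha genes, Pcdha1 to Pcdha7, were listed at 0 in every library, and the C-type genes Pcdhac1 and Pcdhac2 had 0 to 1 and 1 to 6 reads. Pcdhac2, the last alpha gene, had 6, 5, 1, 4 and 5 reads in CM mice 1 to 5 and 3, 2, 5, 2 and 3 in the other 5 mice, with overlap. The models Gm37013, Gm38666 and Gm38667 begin within 41 bases of Pcdha4, Pcdha6 and Pcdha7, run to the end of the gamma cluster and were also listed at 0. Reads on exons shared by such a pair may have been assigned to neither, so that the zeros of these 3 alpha genes may not be absence of reads; no such model begins near the other 4.

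As a sum over its 22 genes, the gamma cluster stood at 46.7, 59.8, 83.6, 67.1 and 70.4 CPM in CM mice 1 to 5 and at 79.9, 119, 127, 99.7 and 136 CPM in CM/miR-126Δ/Δ mice 1 to 5. CM mouse 3, the highest of its genotype, lay above CM/miR-126Δ/Δ mouse 1, the lowest of the other, and no other values overlapped. The means were 65.5 ± 13.6 and 112 ± 22.5 CPM (SD, n = 5 each), a ratio of 1.71. Without CM mouse 1 and CM/miR-126Δ/Δ mouse 5, the lowest and the highest mouse, the log2 ratio was 0.60, against 0.78 with all mice. In sorted cells in bulk, more cells that use these genes and more RNA per cell cannot be told apart.

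Summed beta levels were 9.05, 13.4, 13.7, 11.1 and 11.0 CPM in CM mice 1 to 5 and 15.2, 12.5, 18.2, 13.7 and 25.2 CPM in CM/miR-126Δ/Δ mice 1 to 5. The genotypes overlapped, since CM mice 2 and 3 lay above CM/miR-126Δ/Δ mouse 2, and CM/miR-126Δ/Δ mouse 5 stood well above all others. The means were 11.6 ± 1.93 and 16.96 ± 5.06 CPM (SD, n = 5 each), a ratio of 1.46, and the log2 ratio of 0.54 was 0.36 without CM/miR-126Δ/Δ mouse 5. The alpha genes together had 5 to 27 reads per library, which gave means of 0.436 ± 0.21 and 0.817 ± 0.33 CPM for CM and CM/miR-126Δ/Δ (SD, n = 5 each), with overlapping mice.

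**Figure D2:**
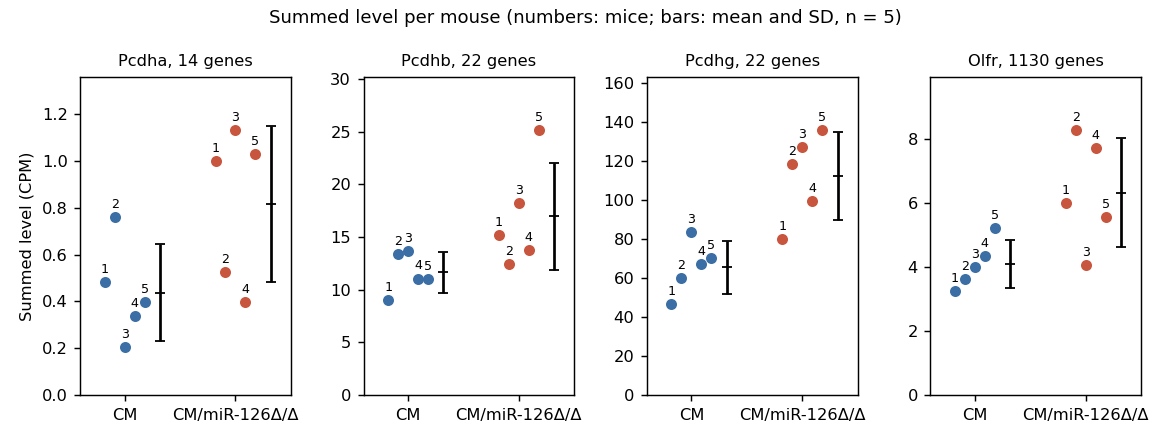
Summed level (CPM) of the alpha, beta and gamma genes and of 1130 olfactory receptor genes in each mouse; numbers name the mice, and bars give the mean and SD of 5 mice. Summed gamma levels run from 46.7 to 83.6 in CM and from 79.9 to 136 in CM/miR-126Δ/Δ mice, while the other sums overlap more.

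By the thresholds of p at most 0.01 and at least 1.5-fold in edgeR's quasi-likelihood test, 17 of the 50 members with any read were called, all 17 higher in CM/miR-126Δ/Δ mice. Over all genes fitted, 0.395% were called higher (74 of 18747). The members were selected on this same contrast, so nothing is read from their count. None was past an adjusted p of 0.05, a mark that 2 genes of the whole table passed. By cluster, 15 of 22 gamma, 2 of 21 beta and 0 of 7 alpha genes were called. Among the 30 members with a mean of at least 10 counts, the fitted log2 fold change was above 0 in 30, with a median of 0.84 and a range from 0.12 to 1.15, beside a median of -0.02 over the 13396 genes with such a mean. In 5 of the 30, every CM/miR-126Δ/Δ mouse lay above every CM mouse, where 0.635% of genes with a mean of at least 10 counts did so. With a mean RPKM of at least 1 required in a genotype, 9 members were called, where 0.308% of such genes were called higher.

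The A-type gamma genes had the highest ratio of summed levels, 1.85, against 1.62 for the B-type and 1.55 for the C-type genes. Pcdhga9 had the largest fitted difference of the gamma genes, with a log2 fold change of 1.15 ± 0.30 (SE). It stood at 1.48, 2.35, 5.44, 3.80 and 3.33 CPM in CM mice 1 to 5 and at 4.04, 7.27, 9.36, 7.17 and 8.48 CPM in CM/miR-126Δ/Δ mice 1 to 5, and only CM mouse 3 lay within the other group's range. Pcdhga4 was at 0.848, 0.859, 0.614, 1.24 and 0.991 CPM in CM mice and at 1.08, 1.61, 2.31, 1.74 and 3.13 CPM in CM/miR-126Δ/Δ mice, a log2 fold change of 1.10 ± 0.29 (SE). CM mouse 4 exceeded CM/miR-126Δ/Δ mouse 1, the pattern of a single overlapping pair that recurred in many of these genes. Pcdhga8 was at 2.09, 2.61, 4.46, 3.90 and 2.97 CPM in CM mice and at 4.30, 6.74, 8.62, 6.06 and 8.44 CPM in CM/miR-126Δ/Δ mice, a log2 fold change of 1.09 ± 0.23 (SE). Pcdhga11 was at 1.88, 2.11, 3.72, 2.59 and 2.91 CPM in CM mice and at 2.97, 5.33, 6.70, 5.11 and 6.67 CPM in CM/miR-126Δ/Δ mice, a log2 fold change of 1.02 ± 0.24 (SE). In both genes CM mouse 3 alone lay above the lowest CM/miR-126Δ/Δ mouse.

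Pcdhga6 separated the genotypes, at 1.21, 1.16, 1.84, 1.85 and 2.05 CPM in CM mice and at 2.11, 2.66, 3.92, 2.77 and 4.08 CPM in CM/miR-126Δ/Δ mice (log2 fold change 0.94 ± 0.24, SE). Pcdhga12 was at 1.57, 3.04, 3.77, 3.13 and 2.87 CPM in CM mice and at 3.23, 6.02, 5.44, 5.78 and 6.59 CPM in CM/miR-126Δ/Δ mice (log2 fold change 0.91 ± 0.23, SE), with CM mouse 3 above the lowest mouse of the other genotype. Pcdhga10, the A gene with the highest count, was at 2.57, 4.30, 6.67, 4.03 and 5.18 CPM in CM mice and at 6.12, 8.88, 9.36, 7.40 and 9.10 CPM in CM/miR-126Δ/Δ mice, and its log2 fold change was 0.85 ± 0.21 (SE). CM mouse 3 again overlapped. Pcdhga5 was at 2.24, 3.90, 3.81, 3.53 and 3.76 CPM in CM mice and at 3.86, 5.81, 5.05, 4.32 and 7.58 CPM in CM/miR-126Δ/Δ mice, a log2 fold change of 0.63 ± 0.21 (SE), with CM mouse 1 low and CM mouse 2 just above CM/miR-126Δ/Δ mouse 1. Its call was lost when CM mouse 1, 4 or 5 or CM/miR-126Δ/Δ mouse 2, 3 or 5 was left out, with log2 fold changes of 0.47 to 0.67. Pcdhga7 separated the genotypes, at 2.48, 3.27, 3.89, 3.70 and 3.90 CPM in CM mice and at 4.12, 5.41, 5.79, 4.55 and 5.93 CPM in CM/miR-126Δ/Δ mice, but its log2 fold change of 0.58 ± 0.17 (SE) fell just under 1.5-fold, so it was not called. Pcdhga1, the first exon of the cluster, was not called either. Its levels were 0.848, 1.16, 1.35, 1.24 and 2.21 CPM in CM mice and 1.30, 2.34, 1.96, 2.22 and 2.26 CPM in CM/miR-126Δ/Δ mice, with CM mouse 5 among the values of the other genotype and CM mouse 3 just above CM/miR-126Δ/Δ mouse 1.

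The B-type genes held the highest levels per kb. Pcdhgb6, the most highly counted member, was at 7.39, 8.23, 10.4, 8.80 and 10.2 CPM in CM mice and at 10.1, 13.4, 12.9, 9.82 and 15.8 CPM in CM/miR-126Δ/Δ mice, and its log2 fold change of 0.47 ± 0.15 (SE) was under 1.5-fold. CM mice 3 and 5 lay above CM/miR-126Δ/Δ mice 1 and 4. Pcdhgb4 was at 5.42, 5.95, 7.29, 5.65 and 6.08 CPM in CM mice and at 6.45, 9.85, 11.4, 7.36 and 9.80 CPM in CM/miR-126Δ/Δ mice, with a log2 fold change of 0.56 ± 0.16 (SE), also under 1.5-fold. Pcdhgb5 was at 4.75, 4.33, 7.49, 5.98 and 5.32 CPM in CM mice and at 7.75, 10.3, 10.6, 6.53 and 9.84 CPM in CM/miR-126Δ/Δ mice and was called, at 0.70 ± 0.17 (log2 fold change, SE). In both genes CM mouse 3 was the 1 CM mouse that overlapped. Pcdhgb7 separated the genotypes, though by little, at 2.85, 4.53, 6.14, 4.54 and 4.92 CPM in CM mice and at 6.16, 8.88, 10.2, 7.40 and 9.67 CPM in CM/miR-126Δ/Δ mice (log2 fold change 0.88 ± 0.19, SE).

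The remaining 3 B genes, with lower counts, were called. Pcdhgb1 separated the genotypes, at 0.999, 0.859, 1.35, 1.28 and 1.45 CPM in CM mice and at 1.67, 1.82, 2.35, 2.02 and 3.13 CPM in CM/miR-126Δ/Δ mice (log2 fold change 0.89 ± 0.23, SE). Pcdhgb2 was at 1.06, 1.26, 2.13, 1.01 and 1.62 CPM in CM mice and at 1.74, 3.47, 3.31, 2.18 and 3.75 CPM in CM/miR-126Δ/Δ mice (log2 fold change 1.03 ± 0.27, SE), with CM mouse 3 above CM/miR-126Δ/Δ mouse 1. Pcdhgb8 was at 1.36, 1.75, 3.56, 2.79 and 2.48 CPM in CM mice and at 2.86, 5.57, 5.01, 5.50 and 6.26 CPM in CM/miR-126Δ/Δ mice (log2 fold change 1.08 ± 0.26, SE). Its listed model ends before that of the other gamma genes and covers less of the shared exons, its fitted difference lay within the range of theirs, and CM mouse 3 lay above CM/miR-126Δ/Δ mouse 1.

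The C-type gamma genes differ from the rest in sequence, and in neurons they are known to follow rules of promoter choice of their own. Here their fitted differences spanned nearly the whole range of the cluster. Pcdhgc3 was at 3.54, 4.76, 4.95, 4.33 and 4.19 CPM in CM mice and at 5.01, 6.10, 5.44, 5.03 and 8.23 CPM in CM/miR-126Δ/Δ mice, with every CM/miR-126Δ/Δ mouse above every CM mouse, and its log2 fold change of 0.45 ± 0.16 (SE) was the smallest of the cluster. Pcdhgc4 was at 0.848, 1.65, 1.92, 1.75 and 1.72 CPM in CM mice and at 2.82, 3.75, 1.83, 2.65 and 2.88 CPM in CM/miR-126Δ/Δ mice, with a log2 fold change of 0.83 ± 0.25 (SE). Pcdhgc5, at 0.363, 0.859, 1.06, 0.739 and 0.561 CPM in CM mice and at 0.742, 1.41, 1.87, 2.06 and 1.77 CPM in CM/miR-126Δ/Δ mice, had a log2 fold change of 1.14 ± 0.33 (SE), on 12 to 52 reads per library. In Pcdhgc4 the overlap came from CM/miR-126Δ/Δ mouse 3, below CM mouse 3, and in Pcdhgc5 from CM/miR-126Δ/Δ mouse 1.

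In the beta cluster, Pcdhb18 was at 0.817, 0.661, 1.06, 0.806 and 0.792 CPM in CM mice and at 1.26, 1.01, 2.31, 1.11 and 3.09 CPM in CM/miR-126Δ/Δ mice (log2 fold change 1.08 ± 0.32, SE). CM/miR-126Δ/Δ mice 3 and 5 were the highest, and the other 3 lay within or close to the CM range. Its call was lost when CM mouse 1, 2, 4 or 5 or CM/miR-126Δ/Δ mouse 3 or 5 was left out, with log2 fold changes of 0.78 to 1.09. Pcdhb14 was called on very few reads, with 2, 5, 2, 5 and 5 in CM mice 1 to 5 and 11, 12, 8, 7 and 8 in CM/miR-126Δ/Δ mice 1 to 5 (log2 fold change 1.49 ± 0.39, SE). These counts did not overlap. Pcdhb22, the last beta gene, was at 1.63, 2.18, 1.39, 1.51 and 2.01 CPM in CM mice and at 2.04, 1.90, 2.74, 1.07 and 2.84 CPM in CM/miR-126Δ/Δ mice, and the genotypes overlapped throughout. Over the 8 beta genes with a mean of at least 10 counts the median log2 fold change was 0.60, against 0.88 over the 22 gamma genes. Pcdhb5, which lies apart from the other used beta genes, had the smallest value, 0.12 ± 0.25 (SE).

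At the p threshold, the members just inside were Pcdhga5 and Pcdhgb6, with log2 fold changes of 0.63 and 0.47. Those just outside were Pcdhga3, at 0.363, 0.297, 0.900, 0.504 and 0.660 CPM in CM mice and at 0.705, 1.17, 1.48, 0.871 and 1.07 CPM in CM/miR-126Δ/Δ mice with a log2 fold change of 0.96 ± 0.33 (SE), and Pcdhgc3, at 0.45.

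A-type genes took 43.3% ± 2.72 of the gamma counts in CM and 46.9% ± 2.50 in CM/miR-126Δ/Δ mice, B-type genes 46.4% ± 2.61 and 43.7% ± 1.95, and C-type genes 10.2% ± 1.15 and 9.33% ± 1.30 (SD, n = 5 each). The share of each type overlapped between the genotypes. Pcdhgb6 alone took 13.9% ± 1.30 in CM and 11.1% ± 1.14 in CM/miR-126Δ/Δ mice, with ranges of 12.4% to 15.8% and 9.85% to 12.7%. No gamma gene took under 0.497% or over 15.8% of the gamma reads in any mouse, so each library of sorted cells held reads of every gamma gene. The rank correlation between log2 fold change and position along the cluster was 0.10 over the 22 genes.

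Whether the neighbourhood of the clusters differed in the same way was examined in 39 genes that lie between the clusters or within 500 kb of them, none of them a member (2 of them, Pcdh1 and Pcdh12, are protocadherins outside the clusters). No flanking gene was called by edgeR or by DESeq2, where 0.592% of all genes fitted were called by edgeR in either direction. Of the 34 with any read, 1 had an unadjusted p at most 0.01 in edgeR, as did 1.48% of all genes fitted. It was under 1.5-fold, and no other flanking gene had an unadjusted p under 0.05 in edgeR. The flanking genes had a median log2 fold change of -0.04, and those with a mean of at least 10 counts ranged from -0.51 to 0.17. That 1 gene, Rell2, encoding a protein that binds receptors of the tumor necrosis factor family, was lower in CM/miR-126Δ/Δ mice and is named after its value was seen. It stood at 10.7, 13.2, 7.90, 11.3 and 10.3 CPM in CM mice and at 9.64, 7.27, 5.27, 8.59 and 6.83 CPM in CM/miR-126Δ/Δ mice, with overlap, a log2 fold change of -0.51 ± 0.17 (SE) and an adjusted p of 0.661 (edgeR). Slc25a2, a mitochondrial ornithine carrier, and Taf7, a subunit of the general transcription factor TFIID, lie on the opposite strand between the beta and gamma clusters. Taf7 was at 39.2, 59.0, 20.3, 39.7 and 52.7 CPM in CM mice and at 42.2, 45.3, 20.0, 54.7 and 18.6 CPM in CM/miR-126Δ/Δ mice, low in mouse 3 of both genotypes and in CM/miR-126Δ/Δ mouse 5, with a log2 fold change of -0.22 ± 0.30 (SE, adjusted p = 0.874, edgeR). Diaph1, a formin that begins just beyond the last gamma exon on the opposite strand, was at 584 ± 41.5 and 604 ± 64.3 CPM (SD, n = 5 each), with an adjusted p of 0.913 (edgeR).

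**Figure D3:**
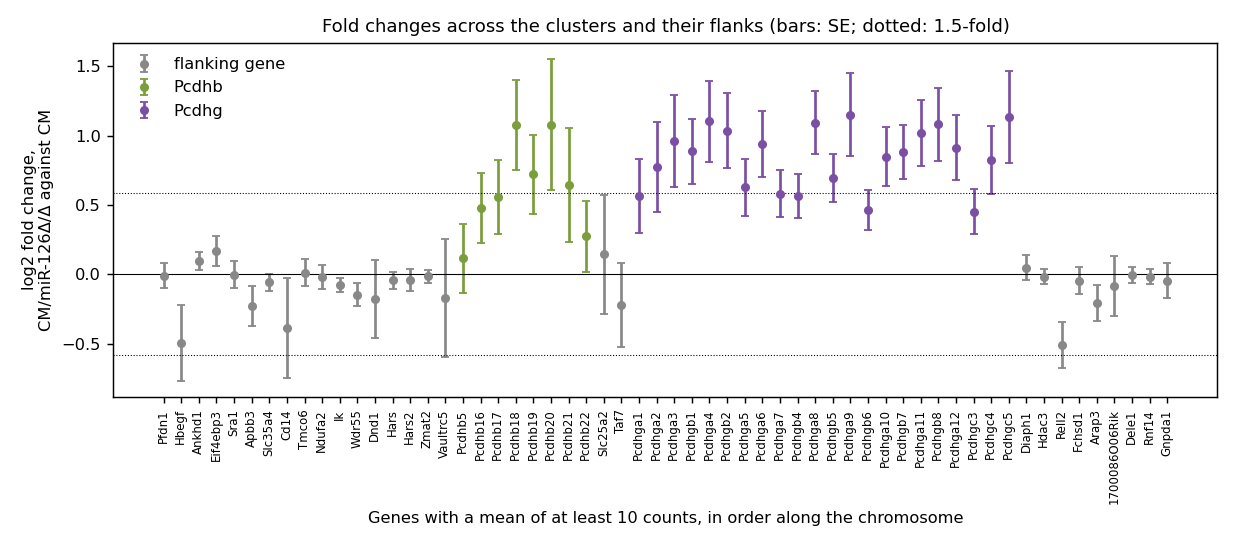
Fitted log2 fold change (CM/miR-126Δ/Δ against CM) with its SE for every flanking, beta and gamma gene with a mean of at least 10 counts, in order along chromosome 18; dotted lines mark 1.5-fold. Gamma genes lie between 0.45 and 1.15, beta genes between 0.12 and 1.08, and flanking genes between -0.51 and 0.17.

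None of 25 genes that control protocadherin promoters passed p of 0.01, whether by edgeR or DESeq2, where 1.48% of all genes did in edgeR, and 0 had an unadjusted p under 0.05 in edgeR. The list held CTCF, the cohesin subunits and their loader, DNA and histone methyltransferases and their partners, and the TET enzymes that oxidise methylated DNA. Their median log2 fold change was 0.03, with a range from -0.07 to 0.13. Ctcf had a log2 fold change of 0.02 ± 0.05 (SE), Smchd1, a silencer of the clusters in other tissues, 0.04 ± 0.07, and Dnmt3b, the methyltransferase that marks their promoters early in development, 0.00 ± 0.07. Trim28, Dnmt1 and Smc1a, the 3 with the highest level, stood at 166, 99.8 and 93.0 RPKM in CM and at 159, 99.8 and 93.5 RPKM in CM/miR-126Δ/Δ mice.

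Genes that act with protocadherin proteins were given by 19 partners, among them the kinases that bind the constant domains, the WAVE complex that drives actin branching, and the proteases that cut protocadherins. No partner passed p of 0.01 by edgeR or DESeq2, and 0 had an unadjusted p under 0.05 in edgeR. Their median log2 fold change was 0.01. Rac1, Nckap1l and Brk1, the 3 highest, stood at 89.9, 80.3 and 81.8 RPKM in CM and at 90.6, 82.7 and 79.6 RPKM in CM/miR-126Δ/Δ mice. Ptk2b, which encodes the kinase Pyk2, was at 40.7 and 39.7 RPKM, and Ptk2, which encodes the focal adhesion kinase, at 3.23 and 3.55.

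The 12 protocadherins outside the clusters, which have no shared constant exons, gave no call by edgeR or DESeq2 and 0 genes at an unadjusted p under 0.05 in edgeR. Pcdh7 was the only one of them well expressed, at 42.0, 33.1, 41.3, 37.5 and 35.4 CPM in CM mice and at 41.5, 55.9, 47.7, 33.4 and 31.2 CPM in CM/miR-126Δ/Δ mice. These values overlapped, and the log2 fold change was 0.15 ± 0.14 (SE, adjusted p = 0.774, edgeR). Pcdh7 stood at 3.74 RPKM in CM and 4.14 in CM/miR-126Δ/Δ mice, and Pcdhgb6 at 1.92 and 2.65 RPKM. The RPKM of Pcdhgb6 counts the shared exons in its length. Per kb of its own exon, Pcdhgb6 stood at 3.51 CPM in CM and 4.84 in CM/miR-126Δ/Δ mice. That is below Pcdh7 in CM and above it in CM/miR-126Δ/Δ mice. Pcdh17 was at 0.0737 and 0.0431 RPKM and Pcdh9 at 0.0145 and 0.0124. Classical cadherins hold cells together through the same kind of extracellular repeats. Among 14 of them the highest was Cdh1, at 0.323 and 0.273 RPKM, and none had an unadjusted p under 0.05 in edgeR. By RPKM, with shared exons counted in the gamma lengths, Cdh1 lay below 14 of the 22 gamma genes in CM and 21 in CM/miR-126Δ/Δ mice.

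Between mice of the same genotype, the gamma genes varied together. After genotype means were removed from log2 CPM (prior count 2), Pearson r between 2 gamma genes over the 10 mice averaged 0.66 ± 0.20 (SD over 231 pairs), and 99.1% of the pairs were positive. The average was 0.28 when the means of same-numbered mice were removed as well, and the cause was not tested. Pairs of 3734 other genes in the same range of mean counts averaged 0.04 ± 0.39. All pairs rest on the same 10 libraries with their depth and preparation in common, so these values describe these libraries and carry no test. A-type genes correlated with one another at 0.71 and with B-type genes at 0.71, and C-type genes with A-type and B-type genes at 0.51. Pcdhgc4 and Pcdhga4 followed the other gamma genes least, at means of 0.33 and 0.38, and Pcdhga7 most, at 0.78.

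Pairs of 1 beta and 1 gamma gene averaged 0.40 ± 0.31 (SD over 176 pairs), and the 8 beta genes differed in how far they followed the gamma cluster. Pcdhb20 had a mean r of 0.76 with the 22 gamma genes, Pcdhb19 of 0.57 and Pcdhb17 of 0.56, while Pcdhb16 was at 0.21, Pcdhb22 at 0.19 and Pcdhb5 at -0.10. Pcdhb16 had the highest level per kb of these 8 genes and Pcdhb20 the lowest.

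**Figure D4:**
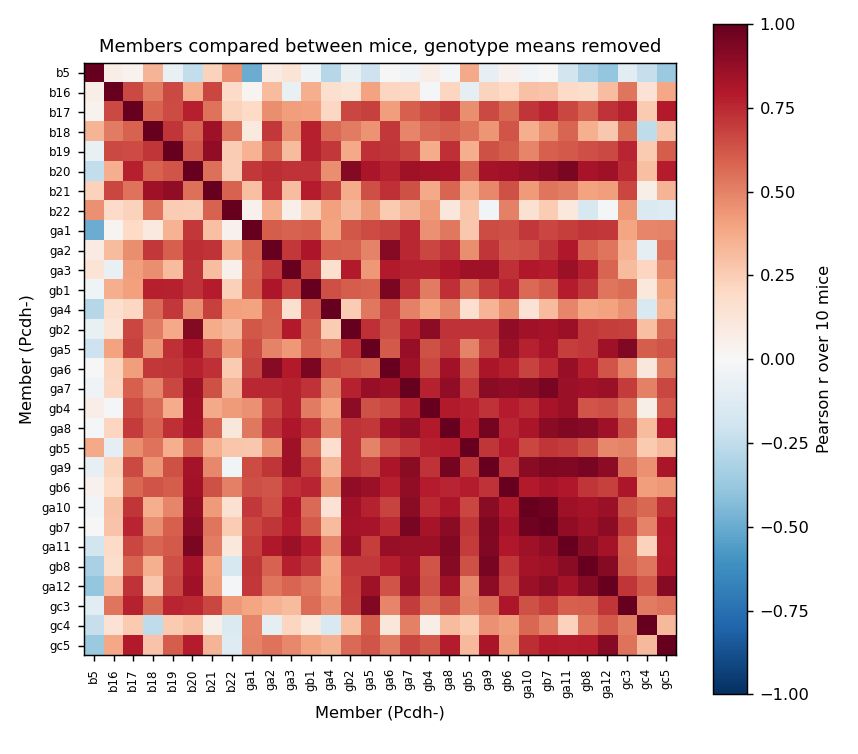
Pearson r over 10 mice between each 2 of the 30 members with a mean of at least 10 counts, in order along chromosome 18, after genotype means were removed from log2 CPM. The gamma block averages 0.66. Against the gamma genes, Pcdhb5, Pcdhb22 and Pcdhb16 have the lowest means, -0.10, 0.19 and 0.21. Among the gamma genes themselves Pcdhgc4 has the lowest, 0.33.

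Outside the clusters, the 5 genes whose log2 CPM was most like the summed gamma level over the 10 mice, genotype means removed, were Gm13570, Mir5119, 1700012D14Rik, Mbd5 and Zfp458. They were taken from 11669 genes that reached 1 RPKM on average in a genotype, and their Pearson r was 0.96, 0.95, 0.95, 0.94 and 0.94. Picked as the largest of so many values over 10 mice, these r are high in part by the choice itself and carry no test. Mbd5, which encodes a protein with a methyl-CpG-binding domain, stood at 57.5 CPM and Zfp458, a zinc finger gene, at 8.57 CPM, whereas Mir5119 rests on 0.237 CPM. None lies on chromosome 18. Among the neighbours of the gamma cluster, Taf7 had r = -0.60, Slc25a2 -0.41 and Diaph1 -0.18 with the summed gamma level, by the same measure over the same 10 mice.

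Other measures of the libraries are given beside the gamma difference, and their part in it was not tested. Totals of counts were higher in CM mice 1, 2, 4 and 5 than in any CM/miR-126Δ/Δ mouse, and CM mouse 3, with the lowest total, had the highest gamma level of its genotype. Neural markers, 12 genes, summed to 141 to 168 CPM in CM mice and to 143 to 165 CPM in CM/miR-126Δ/Δ mice, none with an unadjusted p under 0.05 in edgeR. A mean of at least 10 counts was reached by 3 of the 12, and Mbp stood highest. Syt1 and Olig2 were at 0 in every library and Rbfox3, Snap25 and Sox10 at a mean under 1 count. Mesenchymal markers summed to 144 to 204 CPM and 147 to 182 CPM over 15 genes. Of these 15, 3 were called higher in CM/miR-126Δ/Δ mice, Serpinh1, Islr and Fbn1 (adjusted p of 0.259, 0.514 and 0.612, edgeR). Over all genes fitted, 0.395% were called higher. Dcn, Lum and Col3a1 had a mean of at most 1 count. Endothelial markers summed to 356 to 437 CPM and 367 to 416 CPM over 12 genes, with no call. Their fitted log2 fold changes ran from -0.75 to 1.84, and 1 gene had an unadjusted p under 0.05 in edgeR. The endothelial marker with the highest level was Egfl7, the gene that holds miR-126 in an intron.

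The remaining marker lists were B cell, T cell, myeloid, erythroid, mast cell and basophil, and LSK genes. B cell markers summed to 37.5 to 57.5 CPM in CM mice and to 26.9 to 48.9 CPM in CM/miR-126Δ/Δ mice, with Rag2 called lower, and T cell markers to 16.2 to 20.4 and 15.1 to 26.3 CPM. Mast cell and basophil markers summed to 173 to 316 and 158 to 298 CPM, with Tph1 called lower. Myeloid markers summed to 1750 to 3463 and 1512 to 4041 CPM and erythroid markers to 12.9 to 75.8 and 24.1 to 66.0 CPM, without a call. Of the 8 myeloid genes, 1 had an unadjusted p under 0.05 in edgeR. Log2 fold changes ran from -0.35 to 0.93 among the 7 myeloid genes with a mean of at least 10 counts. LSK markers summed to 3794 to 4433 and 3702 to 4406 CPM over 12 genes, with p at most 0.01 for Hlf alone, which was under 1.5-fold (log2 fold change 0.31, adjusted p = 0.661, edgeR).

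Olfactory receptor genes are another large family, with coding sequence in 1 exon like the beta genes and no known use in LSK cells. They were summed beside the protocadherins after the data were seen. Of 1130 listed, 81 had a read. Their sum stood at 3.24, 3.63, 4.01, 4.33 and 5.22 CPM in CM mice and at 6.01, 8.28, 4.05, 7.72 and 5.56 CPM in CM/miR-126Δ/Δ mice, with overlap at CM/miR-126Δ/Δ mouse 3, and means of 4.09 ± 0.75 and 6.32 ± 1.70 (SD, n = 5 each), a ratio of 1.55. Among 644 genes outside the clusters whose exon length equals their span, with a mean of at least 10 counts, 9 were called higher and 1 lower. Over all genes fitted, which include those with a mean under 10 counts, 0.395% were called higher (74 of 18747). The gene sets were filtered differently, so nothing is read from the difference in shares. The median log2 fold change of the 644 genes was -0.02.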

How the data were processed

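Total RNA of sorted LSK cells from 5 CM and 5 CM/miR-126Δ/Δ mice was sequenced, single-end, after ribosomal RNA depletion with a stranded kit. Groups and mouse numbers come from the sample titles. Reads had been cleaned by the authors using Trimmomatic plus FASTP, mapped to mm10 by TopHat and assigned to RefSeq genes by HTSeq 0.6.1p1. The deposited counts are whole reads per gene without normalization; HTSeq's mode and strand setting are not given in the sources used here, so overlapping and shared exons are uncertain. The authors' second table holds these counts divided by 1 constant per library and was not used.

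All 18747 genes with at least 1 count entered a fit by edgeR 4.0.16 under R 4.3.3 (factors by TMM, glmQLFit and glmQLFTest in their edgeR 3 form, genotype as the only term, two-sided), with Benjamini-Hochberg adjustment over all of them. A call needed p at most 0.01 and 1.5-fold. RPKM was computed from TMM-scaled CPM and the deposited exon length in bases. Constant exon lengths were read from GENCODE M1 transcripts, whose coordinates follow an older build and were not used. No pair of libraries of the same genotype agreed within sampling noise, and pairs across genotypes were not compared. The labels do not say that mice of 1 number were litter mates or prepared together. The script was tested on simulated counts. The floor of 3 counts covers counting error only. SDs of levels and shares are over mice, and SDs of correlations are over pairs of genes. SEs were computed from the fitted log2 fold change and the F statistic of edgeR's quasi-likelihood test.

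The members, gene lists and tests were chosen with earlier results of these data known. Values per mouse are given for the cluster sums, the 10 members with the highest mean count, C-type genes, the first and last member of each cluster, called members and those nearest the p threshold. Flanking genes are named when called, regulator, partner and non-clustered genes when past p of 0.01 or as the 3 highest of their list, with the 5 genes most like the gamma sum by correlation. Others are named as examples. Alternatives were RLE factors, DESeq2 1.42.0, edgeR 4's own fit, other filters, a replicate block and leaving out each mouse. Sums by type, the sums without the lowest and highest mouse, olfactory receptors and intronless genes were added after seeing the data.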

Additional observations from a re-analysis of the deposited data

Results flagged for a closer look

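Values per mouse of the cluster sums and the named members were searched for a mouse far from the other 4 of its genotype, by Dixon's ratio. CM mouse 1 was far below the other CM mice in Pcdhga5, at 2.24 CPM, and in Pcdhgc4, at 0.848 CPM. These were 2 of 66 groups searched, where chance would give about 3.3.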

How the results depend on the processing

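The count of called members was 17 and stayed between 15 and 21 with DESeq2 (19), RLE factors (18), edgeR 4's quasi-likelihood (18), filterByExpr (17), no filter (17) and each mouse left out in turn (15 to 21). It was 10 when the fit was limited to genes that reached 1 RPKM on average in a genotype and 9 when that level was required of the calls, since 13 members reach it. Of the 17 called members, 13 were called in every setting tried for them singly; Pcdhb18 and Pcdhga5 were called in 8 of 14, Pcdhgc5 in 12 and Pcdhgc4 in 13. No fitted difference of these changed sign. Pcdhb18 lost its call without CM mouse 1, 2, 4 or 5 or CM/miR-126Δ/Δ mouse 3 or 5, and Pcdhga5 without CM mouse 1, 4 or 5 or CM/miR-126Δ/Δ mouse 2, 3 or 5; Pcdhgc5 lost it without CM mouse 5 or CM/miR-126Δ/Δ mouse 4, and Pcdhgc4 without CM/miR-126Δ/Δ mouse 2. Pcdhga1, Pcdhga3, Pcdhgb4 and Pcdhga7 gained a call in 1, 4, 3 and 9 settings. Flanking genes had 0 to 1 calls with each mouse left out (Rell2 without CM/miR-126Δ/Δ mouse 1) and regulators 0 to 1 at p of 0.01 (Tet1 without CM/miR-126Δ/Δ mouse 4); partner and non-clustered genes kept 0. The log2 ratio of the gamma sum was 0.75 to 0.88 under other scalings and as a median over members, and 0.68 to 0.88 with each mouse left out; that of the beta sum was 0.52 to 0.60 and 0.36 to 0.63, and that of the alpha sum, from few reads, 0.89 to 0.92 and 0.72 to 1.20, with no median since no alpha gene has a mean of 10 counts. The rank correlation of gamma level with position was 0.37 per own exon, 0.37 in CM and 0.40 in CM/miR-126Δ/Δ mice.

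The replicate number as a block gave 20 called members, with 0 flanking and non-clustered genes called and 0 regulators and partners at p of 0.01. With the block the mean difference of same-numbered mice was 0.78 for gamma, 0.51 for beta and 0.92 for alpha sums (log2), and the mean correlation between gamma genes was 0.28 in place of 0.66; the cause was not tested. Deviations of same-numbered mice correlated at 0.21 on average, from -0.0035 to 0.43, over 0.1 in 4 of 5 pairs. Those of different-numbered mice correlated at -0.05 on average, and 5 of the 10 mice correlated best with their own number. Same-numbered mice also have neighbouring sample numbers in the column names of the counts. With the block, 181 genes of the whole table were called, against 111 without it. What a number shares is not stated in the labels. The main fit did not take the numbers as a pairing, and the block is given as an alternative.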
